A study of Homo sapiens with 12 samples.

Results

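The aldo-keto reductases are a family of NADPH-dependent oxidoreductases that turn reactive aldehydes and ketones into alcohols. The 8 genes described here are AKR1A1, AKR1B1, AKR1B10, AKR1C1, AKR1C2, AKR1C3, AKR7A2 and AKR7A3, which are 8 of the 58735 genes of the count table and 8 of the 16702 genes that passed the filter on low counts. They were chosen by gene symbol, with earlier results of these same libraries in view, so their levels, fold changes and adjusted p-values are a description of these libraries and support no claim about the family. The cells were BEAS-2B, an established line derived from human bronchial epithelium. Wild type (WT) cells and ANT1 knockout (KO) cells were each kept in control medium or given bleomycin at 10 mg/ml over 2 days, a treatment given to induce senescence. ANT1 is the mitochondrial carrier that exchanges ADP for ATP and is encoded by SLC25A4. All 4 groups share the BEAS-2B background, the knockout was made by CRISPR in clones of unstated number, and each group had 3 biological replicates of messenger RNA sequencing. A difference between genotypes and a difference between clones therefore cannot be told apart.

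Aldo-keto reductases are known for different substrates. AKR1B1, or aldose reductase, makes sorbitol from glucose in the polyol pathway, and its relative AKR1B10 reduces retinaldehyde and the aliphatic aldehydes of lipid peroxidation. AKR1B10 is known to be low in healthy airway epithelium and high in the airways of smokers and in lung cancers. The AKR1C enzymes are hydroxysteroid dehydrogenases: AKR1C1 inactivates progesterone, AKR1C2 inactivates dihydrotestosterone, and AKR1C3 makes testosterone and F-type prostaglandins. AKR1A1 is the broad aldehyde reductase, AKR7A2 reduces succinic semialdehyde, and AKR7A3 reduces the dialdehyde of aflatoxin. Several of these genes are classic targets of NRF2, the transcription factor that KEAP1 holds in check until electrophiles or oxidants release it.

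The members sit in 3 clusters and at 1 separate position. The positions are those of the count table, and for 8 of 8 members position and strand equal GENCODE release 29, an annotation of the human build GRCh38. AKR1C1 (chr10:4963253-4983283, + strand), AKR1C2 (chr10:4987400-5018031, − strand) and AKR1C3 (chr10:5035354-5107686, + strand) follow one another on chromosome 10. AKR1B1 (chr7:134442350-134459284, − strand) lies 68.3 kb from AKR1B10 (chr7:134527592-134541408, + strand) with 0 genes between them, and AKR7A3 (chr1:19282558-19289250, − strand) lies 14.7 kb from AKR7A2 (chr1:19303965-19312146, − strand). AKR1A1 (chr1:45550543-45570049, + strand) stands alone.

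The clustered genes are alike to different degrees, and this bears on how far reads can be split between them. The coding sequences of AKR1C1 and AKR1C2 were identical at 953 of 972 aligned bases (98.05%), against 91.46% for AKR1C1 and AKR1C3, 91.05% for AKR1C2 and AKR1C3, 85.89% for AKR1B10 and its untested neighbour AKR1B15, 85% for AKR7A2 and AKR7A3 and 76.18% for AKR1B1 and AKR1B10. The longest run of identical coding bases is shown for 3 pairs, 5′ to 3′ and in lower case throughout because no part of them differs. It was 189 bases for AKR1C1 and AKR1C2 (bases 784 to 972 of the AKR1C1 coding sequence), 116 bases for AKR1B10 and AKR1B15 (bases 236 to 351 of AKR1B10) and 22 bases for AKR1B1 and AKR1B10 (bases 781 to 802 of AKR1B1).
AKR1C1 and AKR1C2: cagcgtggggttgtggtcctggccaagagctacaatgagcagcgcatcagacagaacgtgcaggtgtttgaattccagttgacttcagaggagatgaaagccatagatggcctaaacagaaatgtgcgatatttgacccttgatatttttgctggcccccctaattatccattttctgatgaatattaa
AKR1B10 and AKR1B15: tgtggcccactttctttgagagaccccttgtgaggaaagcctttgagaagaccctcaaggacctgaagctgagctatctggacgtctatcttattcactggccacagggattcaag
AKR1B1 and AKR1B10: atccccaagtctgtgacaccag
Distinct stretches of 100 bases were pooled over all GENCODE transcripts of each gene. Of these, 16.7% for AKR1C1, 23.1% for AKR1C2 and 12.2% for AKR7A3 also lay in another aldo-keto reductase transcript. That share was 1.75% for AKR1C3, 1.59% for AKR1B10, 0.254% for AKR7A2 and 0 for AKR1A1 and AKR1B1. The share of 100-base stretches in the coding transcript alone was not measured. The sources used here do not state how reads mapping to several genes were counted, so the split between AKR1C1 and AKR1C2 is uncertain, and no run of that length is shared by AKR1B1 and AKR1B10.

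The likeness of AKR1C1 and AKR1C2 extends before their RefSeq starts. RefSeq windows on GRCh38.p14 were found for 7 of the 8 members, AKR1B10 being the one without. Over the 250 bases before the annotated start, AKR1C1 and AKR1C2 shared an identical run of 245 bases. Its first 84 bases, which lie outside the GENCODE exons of both genes, are shown because they precede genes of different level per length. They are chr10:4963169-4963252 on the + strand for AKR1C1 and chr10:5004024-5004107 on the − strand for AKR1C2. The AKR1C2 stretch lies inside the AKR1C2 gene of the count table, which begins farther upstream, and precedes only those of its transcripts that start later.
AKR1C1 and AKR1C2 before the RefSeq start: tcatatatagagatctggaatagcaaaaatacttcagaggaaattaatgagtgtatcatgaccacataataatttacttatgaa
In those windows the letters TGACNNNGC, the core of the antioxidant response element that NRF2 binds with its MAF partners, occurred on either strand in 1 member only, AKR7A2, with 3 matches. They occurred in 10.9% of all 35116 RefSeq windows of 250 bases. The AP-1 letters TGANTCA occurred in none of the members' windows and in 6.57% of all windows, and TATAAA occurred in 1 AKR1C3 window and in 10.7% of all. No match says only that these letters are not in the window.

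Totals ran from 15753944 to 21923695 counts a library, so 3 counts correspond to 0.136 to 0.190 CPM (counts-per-million, scaled to the TMM-normalised library size). SLC25A4 stood at 16.1 to 27.5 CPM in the 6 WT libraries and at 4.09 to 6.97 CPM in the 6 KO libraries, which do not overlap. KO control replicate 2 stood apart, with 0.364% of its counts on mitochondrial genes against 3.86% to 5.13% in the other 11 libraries, and with fibroblast markers summing to 4347 CPM, mostly COL1A1, where the other 11 libraries did not pass 2126 CPM. Among the epithelial markers KRT7, KRT8 and KRT18 averaged 743, 587 and 207 CPM, whereas EPCAM and CDH1 were at 1.35 and 1.55 CPM and KRT5 was at 0 in 5 libraries. Among the fibroblast markers VIM, COL1A1, PDGFRB and COL1A2 averaged 1062, 906, 27.1 and 9.24 CPM, and COL1A1 was at 463 CPM or more in each library. COL3A1, PDGFRA and DCN averaged 0.0932, 0.141 and 0.0270 CPM, and LUM was at 0 in all 12 libraries. The leukocyte marker PTPRC averaged 0.127 CPM. The sum over the 7 leukocyte markers, mostly CD14 in control medium and CD14 with ITGAM in bleomycin, was 7.24 to 11.6 CPM in bleomycin and 19.6 to 40.9 CPM in control medium, and its part in the results was not tested.

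In length-scaled units (FPKM, fragments scaled by gene length and depth), AKR1B1 was the dominant member. It held 77.3% of the members' summed FPKM over the 12 libraries, and AKR7A2 and AKR1A1 followed with 11.6% and 7.01%. In WT control cells the mean level was 191.6 ± 41.8 FPKM (SD, n = 3) for AKR1B1, 22.6 ± 2.47 for AKR7A2, 10.8 ± 1.28 for AKR1A1, 1.43 ± 0.404 for AKR7A3, 0.841 ± 0.232 for AKR1C3, 0.181 ± 0.0513 for AKR1C1, 0.172 ± 0.140 for AKR1B10 and 0.0875 ± 0.0112 for AKR1C2. In that order the libraries of AKR7A3 and AKR1C3 overlapped, as did those of AKR1B10 with AKR1C1 and with AKR1C2, and the other neighbours did not. In bleomycin AKR1B10 alone took another place among the others. It passed from the lowest members to 11.2 ± 1.44 FPKM in WT cells and 9.10 ± 1.94 FPKM in KO cells, just under AKR1A1 (13.9 ± 0.770 and 15.7 ± 1.22 FPKM), while its share of the members' summed FPKM went from 0.0718% to 4.65% in WT and from 0.106% to 5.27% in KO cells.

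**Figure D1:**
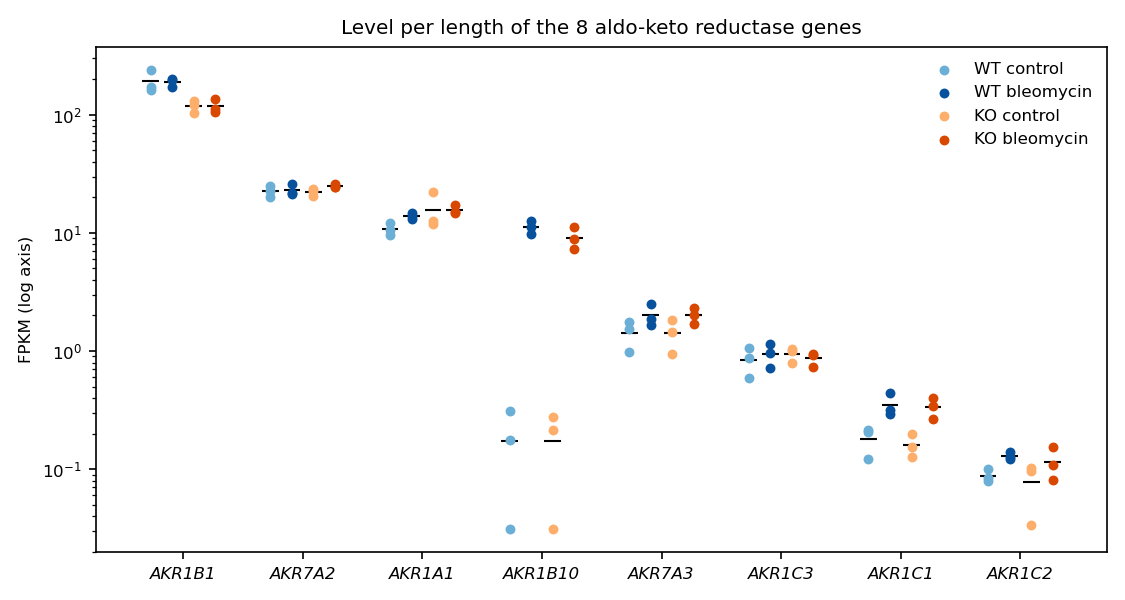
FPKM of the 8 genes on a log axis, ordered by their highest group mean. Points are the 3 libraries of each group and short lines are group means: AKR1B1 sits above 100 FPKM in each library, and AKR1B10 lies among the lowest genes in control medium and near AKR1A1 in bleomycin.

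The question of the first 2 comparisons was how the family responded to bleomycin in each genotype. AKR1B10 rose from traces to a well measured level in both genotypes, and AKR1C1 rose in both genotypes from a low level. The other 6 members did not pass the test in either genotype. Where libraries of 2 groups are said below to overlap or not, the share of all tested genes that did so was not measured. In WT cells 2 of the 8 members were called higher and 0 lower, where 23.9% of all tested genes were called higher and 19.6% lower. In KO cells the count was again 2 higher and 0 lower, against 22.5% and 20.7% of all tested genes. Over the members the median log2 change was 0.44 in WT and 0.34 in KO cells, beside 0.02 and 0.00 over all tested genes, and AKR1B10 and AKR1C6P, a pseudogene of the cluster on chromosome 10, passed the filter only through the libraries in which they were high.

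AKR1B10 gave 6, 12 and 1 counts in the 3 WT control libraries and 334, 343 and 416 counts in the 3 WT bleomycin libraries, in replicate order. In KO cells it gave 8, 6 and 1 counts in control medium and 203, 368 and 288 counts in bleomycin. Each of the 6 bleomycin libraries was far above each of the 6 control libraries. In CPM the change was from 0.301 ± 0.245 to 19.7 ± 2.49 (SD, n = 3) in WT cells and from 0.304 ± 0.223 to 16.0 ± 3.36 in KO cells. The fitted log2 fold change was 5.94 (SE 0.40, edgeR adjusted p = 9.18e-08) in WT and 5.73 (SE 0.42, adjusted p = 2.51e-07) in KO cells, that is 61.5-fold and 53.1-fold. By size of change AKR1B10 ranked 198th of 16702 genes in WT and 181st in KO cells. In these bulk libraries, more cells with the transcript and more transcript per cell cannot be told apart.

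The size of the AKR1B10 change depends on its control level, which rests on 19 counts in all in WT and 15 in KO cells. The ratio of depth-scaled summed counts was 62.3 in WT (95% exact interval 39.7 to 103.9) and 55.1 in KO cells (33.2 to 98.8), intervals that cover counting error only. Without WT control replicate 2, which held 12 of the 19 counts, the WT log2 fold change was 6.69. On the log2(FPKM + 1) scale, which compresses low levels, the change was 3.38 in WT and 3.09 in KO cells. Without the filter on low counts AKR1B10 was called with log2 fold changes of 5.92 and 5.73.

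**Figure D2:**
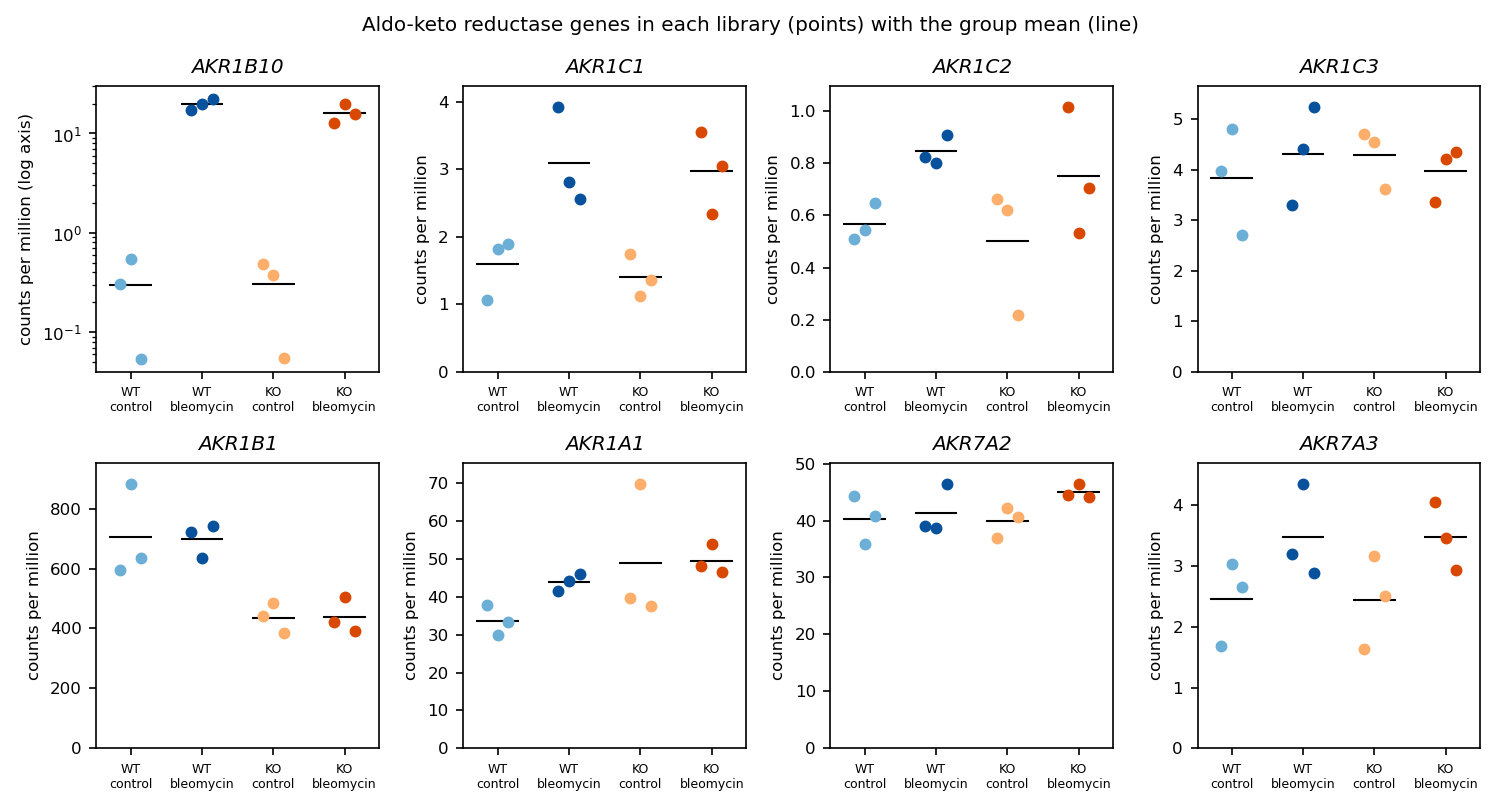
Level in CPM of each gene in each library (points) with the group mean (line), on a log axis for AKR1B10 and on linear axes from 0 for the other 7 genes. The 6 bleomycin libraries of AKR1B10 lie between 12.9 and 22.2 CPM and the 6 control libraries between 0.0541 and 0.545 CPM, and the 6 KO libraries of AKR1B1 lie below its 6 WT libraries.

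Among the steroid-metabolising AKR1C genes, AKR1C1 was at 1.07, 1.82 and 1.89 CPM in WT control and 3.92, 2.81 and 2.56 CPM in WT bleomycin libraries. In KO cells it was at 1.75, 1.12 and 1.37 CPM in control medium and 3.55, 2.34 and 3.04 CPM in bleomycin. The control and bleomycin libraries of each genotype did not overlap. The log2 fold change was 0.96 (SE 0.28, adjusted p = 0.0134) in WT and 1.07 (SE 0.29, adjusted p = 0.00944) in KO cells. These values rest on 18 to 76 counts a library, and the WT call was lost without WT control replicate 1 (0.74, adjusted p = 0.0576) and without WT bleomycin replicate 1 (0.75, adjusted p = 0.0713).

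AKR1C2, its near copy, gave 4 to 17 counts a library and was at 0.219 to 1.02 CPM. Its log2 fold changes of 0.57 (SE 0.38, adjusted p = 0.251) in WT and 0.58 (SE 0.41, adjusted p = 0.274) in KO cells did not pass the test. AKR1C2 also overlaps an antisense gene on the opposite strand that held 15 counts over the 12 libraries, and the sources used here do not state a strand setting. AKR1C3, the most abundant of the AKR1C genes, was at 2.70 to 5.23 CPM, with bleomycin values of 0.17 (SE 0.24) in WT and -0.10 (SE 0.24) in KO cells and overlapping libraries. Where reads shared within the AKR1C cluster cannot be assigned, their sum can still be read. Summed over 8 AKR1C rows, bleomycin libraries lay at 8.98 to 10.9 CPM in WT and 8.51 to 9.13 CPM in KO cells, against 5.51 to 7.31 CPM and 5.36 to 7.25 CPM in control medium. The sum rose by a log2 fold change of 0.67 (SE 0.16, adjusted p = 0.00357) in WT and 0.46 (SE 0.16, adjusted p = 0.0327) in KO cells. Those 8 rows include AKR1C4 and pseudogenes beside AKR1C1, AKR1C2 and AKR1C3. The pseudogene AKR1C6P went from 4 to 57 summed counts in WT and from 3 to 39 in KO cells, beside 96 to 173 and 72 to 156 for AKR1C1. Part of the rise in the sum therefore lies outside the members.

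AKR1B1, beside AKR1B10 on chromosome 7, did not follow it. Aldose reductase was at 595, 883 and 634 CPM in WT control and 722, 634 and 742 CPM in WT bleomycin libraries, and at 441, 485 and 384 CPM in KO control and 421, 504 and 391 CPM in KO bleomycin libraries. Control and bleomycin libraries overlapped within each genotype. The bleomycin log2 fold change was -0.01 (SE 0.15) in WT and 0.01 (SE 0.15) in KO cells.

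AKR1A1, the broad aldehyde reductase, was at 37.8, 30.0 and 33.4 CPM in WT control and 41.5, 44.2 and 46.2 CPM in WT bleomycin libraries, which do not overlap. In KO cells it was at 39.6, 69.9 and 37.5 CPM in control medium and 48.1, 53.9 and 46.7 CPM in bleomycin, where the 69.9 CPM belongs to KO control replicate 2, the library of low mitochondrial share. The WT log2 fold change was 0.38 (SE 0.19, adjusted p = 0.129) and the KO value 0.02 (SE 0.19, adjusted p = 0.954). With all 12 libraries AKR1A1 was called higher in WT cells without the filter on low counts (0.36, adjusted p = 0.0310), and it was called with only the 2 WT groups fitted (0.39, adjusted p = 0.00201). Without KO control replicate 2 it was called higher in WT (0.38, adjusted p = 0.000869) and in KO cells (0.36, adjusted p = 0.00478).

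Neither AKR7A gene passed the test. AKR7A2 was at 35.9 to 46.5 CPM over the 12 libraries, with bleomycin values of 0.04 (SE 0.11) in WT and 0.17 (SE 0.11, adjusted p = 0.211) in KO cells. Its KO control libraries, at 36.9, 42.2 and 40.6 CPM, lay below its KO bleomycin libraries, at 44.5, 46.5 and 44.1 CPM. AKR7A3 was at 1.63 to 4.36 CPM, with values of 0.50 (SE 0.28, adjusted p = 0.175) in WT and 0.51 (SE 0.29, adjusted p = 0.168) in KO cells, and its groups overlapped. Without KO control replicate 2 the KO value of AKR7A3 was 0.73 (adjusted p = 0.0426).

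**Figure D3:**
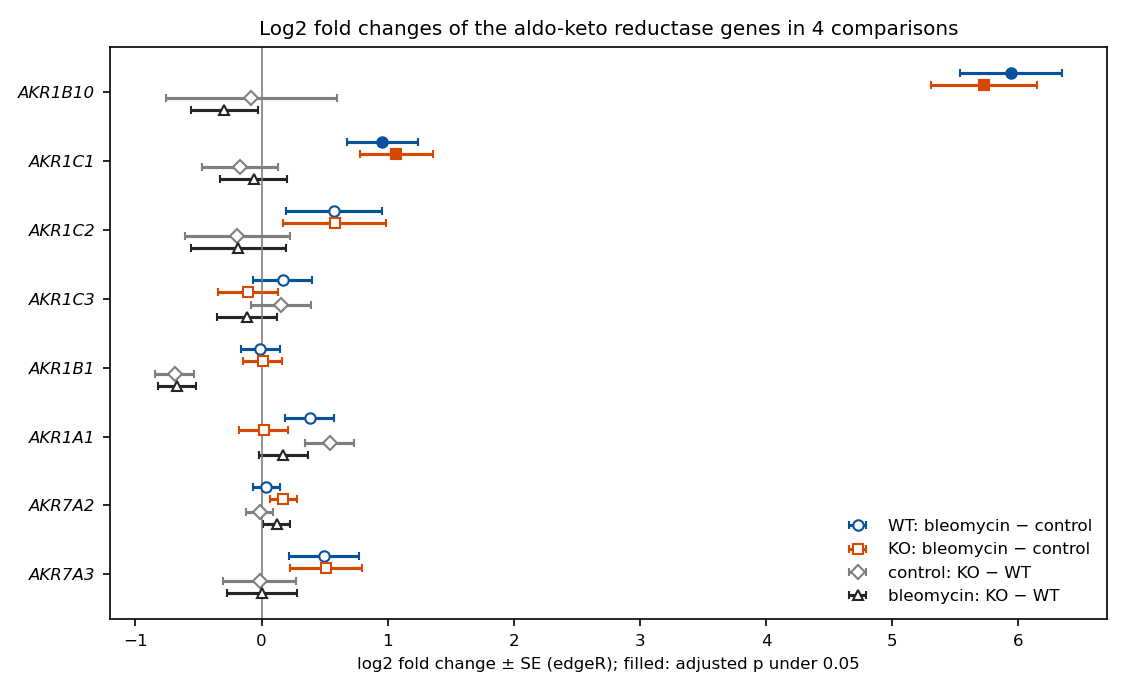
Log2 fold change with its standard error for each gene in 4 comparisons from 1 fit, filled where the adjusted p was under 0.05. AKR1B10 (5.94 and 5.73) and AKR1C1 (0.96 and 1.07) are filled for bleomycin in both genotypes, and AKR1B1 is the one gene with both genotype values near -0.7.

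The next comparisons asked whether the ANT1 knockout altered the family in either medium. No member passed the test, and the member farthest from its error was AKR1B1, which was lower in KO than in WT cells in both media. In control medium 0 of the 8 members were called, against 0.108% of all tested genes called higher and 0.0599% called lower. In bleomycin 0 were called, against 0.00599% and 0.0419%. At an unadjusted p under 0.05 the count of members was 2 in control medium (AKR1A1 and AKR1B1) and 1 in bleomycin (AKR1B1). Over all 16702 tested genes that count was 1661 in control medium and 1103 in bleomycin. DESeq2 called AKR1B1 in each medium, of 6 members with an adjusted p in control medium and 8 in bleomycin, and limma on log2(FPKM + 1) called 0 of the 6 members it tested. The median log2 difference of the members was -0.05 in control medium and -0.09 in bleomycin, beside 0.02 and -0.00 over all tested genes.

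Each of the 6 KO libraries held less AKR1B1 than each of the 6 WT libraries, 384 to 504 CPM against 595 to 883 CPM. The share of all tested genes whose libraries separate in this way was not measured, so the separation is a description only. The log2 difference between KO and WT was -0.69 (SE 0.15, adjusted p = 0.117) in control medium and -0.67 (SE 0.15, adjusted p = 0.234) in bleomycin, that is 1.61-fold and 1.59-fold lower. Its sizes in the 2 media rest on different libraries. AKR1B1 was called lower under several other settings. With DESeq2 the adjusted p was 0.00444 in control medium and 0.0154 in bleomycin, and with edgeR without the filter on low counts it was 2.78e-07 and 2.78e-06. In bleomycin edgeR also called it with only the 2 groups compared (adjusted p = 0.000772) and without KO control replicate 2 (0.0456). In control medium the same 2 settings gave edgeR adjusted p of 0.818 and 0.0580, so it was not called. With the replicate block it was called in neither medium (edgeR adjusted p = 0.156 in control medium and 0.296 in bleomycin). Leaving out any other single library gave no call, with edgeR adjusted p up to 0.350 in control medium and 0.724 in bleomycin. Because AKR1B1 dominates the family, the 8 members together summed to 684 to 960 CPM in WT and 470 to 635 CPM in KO libraries.

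AKR1A1 was higher in KO than in WT control libraries by 0.54 on the log2 scale (SE 0.19, adjusted p = 0.424), by 0.51 without the filter on low counts (adjusted p = 0.0192), and by 0.20 without KO control replicate 2. In bleomycin the AKR1A1 difference was 0.17 (SE 0.19, edgeR adjusted p = 0.999). AKR1B10 differed between genotypes by -0.08 (SE 0.68) in control medium and by -0.30 (SE 0.27) in bleomycin, and AKR1C1 by -0.17 (SE 0.30) and -0.06 (SE 0.27). The libraries of the 2 genotypes overlapped for both genes in both media. For AKR1C2, AKR1C3, AKR7A2 and AKR7A3 the genotype values ran from -0.19 to 0.15, and none passed the test.

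The interaction of genotype and bleomycin, the test of whether the response differed between WT and KO cells, called 0 of the 8 members, against 0% of all tested genes called higher and 0% called lower. At an unadjusted p under 0.05 it held 770 genes and 0 members. DESeq2 called 4 genes and limma 0, with 0 members in either. AKR1B10 had an interaction of -0.21 (SE 0.75) and AKR1C1 of 0.11 (SE 0.40), so a difference in response of the size of these standard errors was not detectable. The value farthest from 0 was that of AKR1A1, -0.37 (SE 0.27, adjusted p = 0.899), which includes KO control replicate 2.

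Of 20 other rows of the family in the table, 14 held any count and 6 were tested. In WT cells 2 of the 6 passed the test in bleomycin and in KO cells 1, each of them higher. Of all tested genes 23.9% were called higher in WT and 22.5% in KO cells. AKR1C6P, called in both genotypes, passed the filter only through the libraries in which it was high, so its call is no support for a rise. AKR1C6P, a pseudogene of the AKR1C cluster, went from 4 to 57 summed counts in WT cells (ratio 15.4, 95% exact interval 5.71 to 58.6) and from 3 to 39 in KO cells (12.5, 3.97 to 63.2). This interval and the others of this paragraph rest on counts summed over the libraries of a group. They cover counting error only and leave out the spread between libraries. KCNAB1, a potassium channel beta subunit of aldo-keto reductase fold, had a log2 fold change of 0.65 (SE 0.22, adjusted p = 0.0304) in WT and 0.45 (SE 0.23, adjusted p = 0.138) in KO cells. Below the filter, 3 genes were chosen after their values were seen. AKR1B15, 7.73 kb from AKR1B10, went from 0 to 12 summed counts in WT cells and from 0 to 20 in KO cells. With 3 counts set for the control group, the ratios were 4.33 and 6.41. The 95% exact intervals of the observed counts began at 3.01 and 4.75. In KO bleomycin libraries the counts were 4, 14 and 2 in replicate order. AKR1B15 shares a coding run of 116 identical bases with AKR1B10, which gave 1093 and 859 counts in bleomycin. Whether the AKR1B15 reads came from AKR1B10 was not tested. AKR1D1, a steroid reductase of liver that serves bile acid synthesis, went from 3 to 22 counts in WT cells (ratio 7.95, interval 2.39 to 41.5). In KO cells AKR1D1 went from 0 to 18 counts, a ratio of 5.77 with 3 control counts set (interval from 4.23). AKR1C4, the liver AKR1C enzyme, went from 2 to 10 counts in WT cells (5.42, 1.15 to 50.9). In KO cells AKR1C4 went from 0 to 6 counts, a ratio of 1.92 with 3 control counts set (interval from 1.13). The liver markers ALB, APOA1, TTR and CYP3A4 each averaged under 0.2 CPM. They summed to 0 to 0.311 CPM in control medium and 0.267 to 0.860 CPM in bleomycin, and their part in these low counts was not tested.

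NRF2 and its partners were read beside the members, since AKR1B10 and AKR1C1 are known targets of this factor. Of the 9 regulators tested, 3 rose and 1 fell in WT cells, and 2 rose in KO cells. SQSTM1, the autophagy receptor that binds KEAP1, rose by 1.61 (SE 0.20) in WT and 1.07 (SE 0.19) in KO cells on the log2 scale, and MAFF, a small MAF partner, by 1.01 and 1.09 (SE 0.13 each). KEAP1 rose by 0.20 (SE 0.07, adjusted p = 0.0495) and the ubiquitin ligase scaffold CUL3 fell by 0.25 (SE 0.08, adjusted p = 0.0231) in WT cells. In KO cells neither passed the test, with KEAP1 at 0.14 (adjusted p = 0.143) and CUL3 at -0.20 (adjusted p = 0.0608). The transcript of NRF2 itself, NFE2L2, named after its values were seen, was at -0.37 (SE 0.14, adjusted p = 0.0554) in WT and -0.19 (SE 0.15, adjusted p = 0.308) in KO cells.

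The counts for this and the other lists are read beside the shares of all tested genes called in bleomycin, 23.9% higher and 19.6% lower in WT and 22.5% higher and 20.7% lower in KO cells. Of 31 NRF2 target genes tested, 7 rose and 12 fell in WT cells (median -0.13) and 10 rose and 9 fell in KO cells (median -0.16), beside medians over all tested genes of 0.02 and 0.00. HMOX1, heme oxygenase, rose by 3.03 (SE 0.21) in WT and 3.11 (SE 0.22) in KO cells, from 37.0 ± 6.90 to 301.9 ± 43.8 CPM (SD, n = 3) in WT. SLC7A11, the cystine transporter, rose by 1.61 and 1.31 (SE 0.12 each). In contrast TXNRD1, thioredoxin reductase, fell by 1.36 and 1.17 (SE 0.11 each), and TRIM16L fell by 1.66 and 1.42 (SE 0.12 each). No regulator and no target was called between genotypes or in the interaction.

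Among 20 other carbonyl-metabolising enzymes tested, 4 rose and 5 fell in WT and 5 rose and 6 fell in KO cells. The short-chain reductase DHRS2 changed on the scale of AKR1B10. It was at 0.746 ± 0.340 CPM in WT control and 46.5 ± 8.05 CPM in WT bleomycin libraries, and at 0.811 ± 0.136 and 37.9 ± 0.760 CPM in KO cells. Its log2 fold changes were 5.92 (SE 0.23) and 5.54 (SE 0.23). ALDH7A1, which oxidises lysine-derived aldehydes, rose by 0.98 and 0.82, while ALDH3B1 fell by 1.07 and 0.85 and the retinaldehyde reductase DHRS3 fell by 1.10 and 1.02. DHRS3 is also in the retinoid list, where 7 of 14 genes rose and 4 fell in WT and 7 rose and 3 fell in KO cells. STRA6, the retinol uptake receptor, rose by 0.82 in WT and 0.85 in KO cells, and CYP26B1, which degrades retinoic acid, by 2.00 and 1.21. The retinol carrier RBP4 fell by 1.52 in WT cells. In KO cells it was at -0.51 (SE 0.21, edgeR adjusted p = 0.0637) and did not pass the test. RBP4 was the 1 listed gene called between genotypes, at -1.50 (SE 0.19, adjusted p = 0.0141) in KO against WT control libraries.

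**Figure D4:**
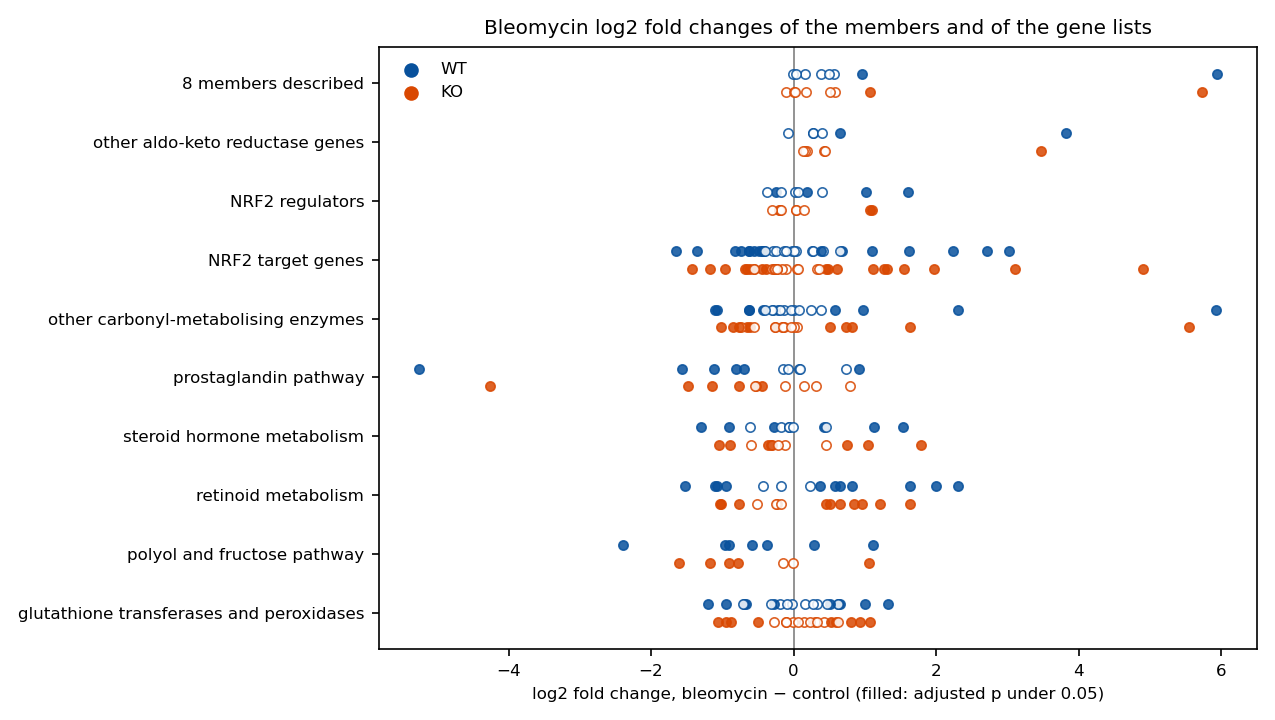
Bleomycin log2 fold changes in WT and KO cells for the 8 genes and for the tested genes of 9 lists, filled where the adjusted p was under 0.05. AKR1B10 and, among the other carbonyl-metabolising enzymes, DHRS2 lie near 6 in both genotypes, and the NRF2 targets spread to both sides of 0.

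In the polyol and fructose pathway, which AKR1B1 opens, 2 of 7 genes rose and 5 fell in WT and 1 rose and 4 fell in KO cells. The aldolase ALDOC fell by 2.39 and 1.61, the aldolase ALDOA by 0.90 and 0.79 and the fructokinase KHK by 0.96 and 1.18, whereas TKFC, which phosphorylates glyceraldehyde, rose by 1.11 and 1.06. In the prostaglandin pathway of AKR1C3, 1 of 11 genes rose and 5 fell in WT and 0 rose and 6 fell in KO cells. PTGIS, the prostacyclin synthase, fell from 5.76 ± 1.12 to 0.143 ± 0.110 CPM in WT and from 5.54 ± 0.850 to 0.284 ± 0.247 CPM in KO cells. The cyclooxygenase PTGS1 fell by 1.56 and 1.48, the transporter ABCC4 by 0.81 and 0.77 and PTGES3 by 0.70 and 0.53.

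In steroid hormone metabolism, the pathway of the AKR1C enzymes, 3 of 12 genes rose and 3 fell in WT and 3 rose and 4 fell in KO cells. HSD17B7 rose by 1.53 and 1.79 and HSD17B12 by 1.12 and 1.04, both of which also serve lipid synthesis, and HSD17B11 fell by 0.90 and 1.05 and HSD17B8 by 1.30 and 0.90. Among glutathione transferases, peroxidases and related enzymes 5 of 20 rose and 5 fell in WT and 5 rose and 4 fell in KO cells. The glutathione synthetase GSS rose by 1.00 and 0.80 and the peroxidase GPX1 by 1.33 and 1.07, while the transferase GSTM4 fell by 1.20 and 0.88. The 9 lists differ in size and share genes, and their counts describe these libraries beside the shares over all tested genes given above, with nothing particular to a list read from them.

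The genes whose pattern over the 12 libraries lay closest to each member were found from log2 CPM centred on its mean, by the root mean square difference, among tested genes whose log2 CPM averaged 1 or more. For AKR1B10, whose own standard deviation was 3.01 on this scale, they were DHRS2 (difference 0.474), KANK3 (0.538) and SHC4 (0.551), with WT bleomycin log2 fold changes of 5.92, 5.79 and 5.65. For AKR1C1 (standard deviation 0.588) they were GLI4 (0.171), PPIEL (0.178) and ARSG (0.183). For AKR1B1 (0.395) they were ZC3H12A (0.209), CIAPIN1 (0.214) and FOXJ2 (0.217), and for AKR1A1 (0.322) SLC39A11 (0.0979), GGCT (0.101) and PRDX4 (0.101). These are the nearest of all tested genes in the same 12 libraries. The remaining members varied little or had few counts, and their nearest genes were LINC01521, KIF5C and BDKRB2 for AKR1C2, PBDC1, IMMP1L and SSSCA1 for AKR1C3, TRAPPC2L, AP3S1 and P4HB for AKR7A2, and CMIP, FOXK1 and STRADA for AKR7A3.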

How the data were processed

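Gene expression was measured by sequencing of poly-A RNA in 12 libraries, 3 for each of 4 groups. The authors deposited raw counts per gene and FPKM values for 58735 genes. Per the submitters' processing notes, HISAT2 2.0.5 and featureCounts 1.5.0-p3 were among the tools; the genome build, the strand setting and the treatment of multi-mapping reads are not given in the sources used here. Deposited counts were tested with edgeR 4.0.16 (R 4.3.3; filterByExpr, TMM, robust quasi-likelihood fit) in 1 model of 4 group means with 5 contrasts, with Benjamini-Hochberg adjustment over 16702 genes and a threshold of 0.05. Deposited FPKM values were used for levels between genes and, as log2(FPKM + 1) or log2(FPKM + 0.1), with limma 3.58.1. Other settings were DESeq2 1.42.0, another scaling, no filter, only the groups compared, a replicate block, summed AKR1C rows and each library left out.

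The members and gene lists were chosen with earlier results of these data known. The text names the 8 members, SLC25A4, up to 4 genes past the threshold per list, those with the smallest adjusted p, and 3 like-patterned genes per member. In the main fit, p-values rest on the spread between biological replicates, estimated over the 4 groups together. They do not measure the spread between knockout clones.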

Additional observations from a re-analysis of the deposited data

How the results depend on the processing

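Of the members' values, none reversed a called direction under the settings run. In WT cells bleomycin called 2 members, 1 to 3 with each library left out in turn, 3 without the filter on low counts and with only the 2 groups compared, and 1 with limma on log2(FPKM + 1), on log2(FPKM + 0.1) and without its filter, where AKR1C1 either was not tested or missed the threshold. The 3 include AKR1A1, and among the libraries left out they came without KO control replicate 2. In KO cells it called 2 members, 2 to 4 with each library left out, the 4 being without KO control replicate 2, and 1 with each of the 3 limma settings. KO against WT in control medium called 0 members, 2 without the filter on low counts and 1 with DESeq2. In bleomycin it called 0, and 1 without the filter, with only the 2 groups compared and with DESeq2, and 0 to 1 with each library left out. The cause of these differences was not tested, apart from the smaller number of members that the limma filter tested (6 of 8).

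The replicate numbers did not pair the samples: 1 of 18 correlations of same-numbered deviations was over 0.1 (range -0.13 to 0.11). With the replicate block, 2 members were called for bleomycin in each genotype and 0 in the other comparisons. Over all genes, KO against WT in control medium called 28 genes, 11 with the block, 321 without the filter, 0 with only the 2 groups compared, 202 with DESeq2, 15, 13 and 6 with the limma settings, and 0 to 175 with each library left out, the 175 being without KO control replicate 2. In bleomycin it called 8, and 4, 81, 312 and 75 under the same first 4 settings, 18, 3 and 28 with limma, and 2 to 294 with each library left out, the 294 again without that library. The interaction called 0 genes, 13 without the filter, 4 with DESeq2, 2 with limma without its filter and 9 without KO control replicate 2.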
